A study of Mus musculus with 16 samples.

Results

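Sg3, Sg2b, Sg2a and Sa are the switch regions in front of the heavy chain constant genes for IgG3, IgG2b, IgG2a and IgA, and they are the 4 switch regions that took few of the translocation junctions mapped here. Their junctions were chosen by label: every junction on chromosome 12 that the deposited lists assign to exactly 1 of these 4 names was taken. The rule uses the label and no measured value, and the 4 regions were picked with earlier results of these data known. There were 42 such junctions among 141167 in all, or among 33479 outside chromosome 15, the chromosome that carries the break. Sg3 had 14, Sa 11, Sg2a 10 and Sg2b 7. The other labelled switch regions had far more, with 795 in Smu, 776 in Sg1 and 405 in Se, which brings the switch junctions to 2018.

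The junctions come from high-throughput genome-wide translocation sequencing, in which the genomic sequence joined to a known DNA break (the bait) is amplified and read (the prey). As bait, 25 I-SceI sites had been placed in the first intron of 1 Myc allele, and a retrovirus that also carries GFP delivered the enzyme. The cells were IgM+ B cells from the spleen of 129sv mice aged 6 to 8 weeks, and every group carried the cassette and received the enzyme. Mouse numbers are not given by the labels, so p-values measure the spread between these libraries, which may be partly technical.

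One stimulus was an antibody to CD40 at 1 µg/mL with IL4 at 20 ng/mL, abbreviated anti-CD40/IL4, with infection after 24 h and harvest at day 4. It was given to WT cells (n = 4 libraries), to ATM-/- cells (n = 3), called ATM-deficient here, and to WT cells with KU55933 (n = 3), an inhibitor of the kinase ATM, at 10 µM from infection onward. The other stimulus was RP105, an antibody to a B cell surface protein, at 2 µg/mL, with infection after 48 h and harvest at day 5, in libraries labelled WT (n = 3) and ATM-/- (n = 3).

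Class switching replaces the IgM constant region with another by joining breaks in Smu, the donor, to breaks in 1 downstream acceptor region. The enzyme AID starts these breaks by deaminating cytosines, with the tetramer AGCT as a preferred site, and only acceptor regions that are transcribed become targets. CD40 with IL4 directs mouse B cells towards IgG1 and IgE, so Sg3, Sg2b, Sg2a and Sa are not the acceptors this stimulus is known for. ATM signals DNA double-strand breaks and takes part in their repair.

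The deposited lists hold from 586 to 5604 junctions outside chromosome 15 per library. By the form of the read names, anti-CD40/IL4 libraries without inhibitor were read on a 454 instrument and the KU55933 and RP105 libraries on a MiSeq, so the sequencer and the stimulus or inhibitor cannot be told apart in comparisons between those sets. The time of infection and harvest also moves with the stimulus. The RP105 labels stand apart: the part of chromosome 12 centromeric of Igh, the heavy chain locus, took 11.3% to 12.3% of junctions outside chromosome 15 in the libraries labelled WT and 3.63% to 5.71% in those labelled ATM-deficient, whereas under anti-CD40/IL4 the ATM-deficient libraries were the higher, at 7.59% to 10.3% against 2.60% to 4.07%. Every genotype statement under RP105 therefore refers to the labels. Values pooled over both RP105 labels do not change if the labels are exchanged.

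The 4 regions lie on chromosome 12 of build mm9 in the order Sa, Sg2a, Sg2b, Sg3 from the centromere. Their labelled junctions ran from 114499378 to 114501484 in Sa, from 114528574 to 114533822 in Sg2a, from 114546265 to 114552270 in Sg2b and from 114599874 to 114603429 in Sg3. Se lies between Sa and Sg2a, Sg1 between Sg2b and Sg3, and Smu is telomeric of Sg3. Within these spans, 0 junctions carried another label or none. Switch regions lie in introns upstream of the constant exons and are not coding.

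The preys show what these regions look like as sequence. The following 5 preys are all from Sg3 under RP105, where most Sg3 junctions were found, with AGCT in capitals. They start at the junction with the Myc bait, read 5′ to 3′ away from it and all lie on the minus strand. The first 3 come from 3 different libraries labelled WT and are nested: their junctions differ and their far end is the same.

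Sg3 at 114601601: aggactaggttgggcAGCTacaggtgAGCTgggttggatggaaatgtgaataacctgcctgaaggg
Sg3 at 114601607: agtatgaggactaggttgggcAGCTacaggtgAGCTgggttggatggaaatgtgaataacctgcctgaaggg
Sg3 at 114601626: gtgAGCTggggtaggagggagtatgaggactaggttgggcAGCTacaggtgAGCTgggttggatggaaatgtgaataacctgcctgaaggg
Sg3 at 114601934: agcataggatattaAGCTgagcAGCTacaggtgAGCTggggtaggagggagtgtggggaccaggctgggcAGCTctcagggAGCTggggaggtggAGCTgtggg
Sg3 at 114603033, first 120 bases: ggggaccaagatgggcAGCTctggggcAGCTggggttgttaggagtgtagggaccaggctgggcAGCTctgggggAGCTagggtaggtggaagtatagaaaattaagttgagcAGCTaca

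The shared far end, at 114601536, belongs to 4 Sg3 preys from the libraries labelled WT under RP105. The prey ends in gg there, as it did in 23 of the 42 preys of all 4 regions. Genomic DNA was cut with HaeIII, whose cut leaves this end, before adapters were added. The 4 junction positions all differ.

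Sg2b and Sg2a are near copies of each other in places. The first pair of preys is shown because both reads hold the same run of 71 bases, yet 1 is labelled Sg2a and the other Sg2b. The other preys are shown for the repeat unit of each region and for a stretch of Sg2b outside the repeats.

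Sg2a at 114531048, first 74 bases: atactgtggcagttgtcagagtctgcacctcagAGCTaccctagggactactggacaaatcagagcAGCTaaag
Sg2b at 114551851: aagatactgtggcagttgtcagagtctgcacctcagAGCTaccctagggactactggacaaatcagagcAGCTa
Sg2a at 114533195: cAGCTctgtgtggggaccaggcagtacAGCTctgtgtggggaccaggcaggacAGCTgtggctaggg
Sg2b at 114551332: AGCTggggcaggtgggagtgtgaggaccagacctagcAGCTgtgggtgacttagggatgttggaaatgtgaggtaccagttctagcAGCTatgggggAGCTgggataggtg
Sg2b at 114546339, first 100 bases: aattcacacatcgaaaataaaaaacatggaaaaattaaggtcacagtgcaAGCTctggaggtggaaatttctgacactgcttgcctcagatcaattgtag

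Most preys labelled Sa hold short, dense repeats that resemble those of Smu. The first 2 are shown because words of 25 bases in them also occur in Smu. This holds for 69 of 69 words at 114500990 and 65 of 81 at 114500948. The words found under Smu put the Sa label of these 2 preys in doubt. In the reference sequence aligned under Sa, 0 and 3 words occur. That sequence comes from 11 junctions, against 795 for Smu, so an absent word may only be uncovered. The last prey is shown because it does not share any such word with another switch region.

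Sa at 114500990: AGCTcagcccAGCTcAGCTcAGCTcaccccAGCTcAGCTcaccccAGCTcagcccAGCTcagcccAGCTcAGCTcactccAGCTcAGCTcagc
Sa at 114500948: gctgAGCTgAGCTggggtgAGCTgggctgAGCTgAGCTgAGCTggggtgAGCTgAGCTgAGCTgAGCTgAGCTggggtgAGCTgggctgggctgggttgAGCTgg
Sa at 114499378, first 120 bases: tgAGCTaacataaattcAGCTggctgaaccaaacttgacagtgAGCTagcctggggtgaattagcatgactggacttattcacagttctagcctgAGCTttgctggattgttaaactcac

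AGCT, which reads the same on both strands, was far denser in these preys than in preys outside the constant part of Igh. It occurred 7.98 times per 100 prey bases in Sa, 2.51 times in Sg3, 2.05 times in Sg2a and 1.78 times in Sg2b. The Sa value comes mostly from 7 preys that share words of 25 bases with Smu, which held 68 AGCT in 565 bases (12.04 per 100), while the other 4 Sa preys held 11 in 425 (2.59 per 100), close to Sg3. The corresponding densities were 5.22 in Smu, 3.44 in Se, 1.63 in Sg1 and 0.514 in preys outside the constant part of Igh. At least 1 AGCT was present in 39 of the 42 preys (92.9%), against 42.8% of the 31095 preys outside the constant part of Igh, whose median length of 105 bases was close to the 101 bases of the 42.

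The labels of these regions are not equally secure. In 12 of the 42 preys, at least 1 exact word of 25 bases also occurred in reference sequence to which reads align under a different switch label. These were 7 of 11 in Sa, all shared with Smu and all from KU55933 libraries, and 3 of 7 in Sg2b and 2 of 10 in Sg2a, shared between those regions. In Sg3 it was 0 of 14. The 7 Sa preys held 397 words of 25 bases, of which 218 occurred in the reference sequence that reads align to under Smu and 11 in that under Sa. The counts 218 and 11 are not on equal terms, as that sequence came from 795 Smu junctions and 11 Sa junctions. A word was also found only where it lay within 1 aligned block, and all 7 preys aligned in more than 1 block. The Sa counts and the share of switch junctions are also given without these 12 junctions below.

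Sg3, the acceptor for IgG3, had most of its junctions under RP105, a difference that did not pass the test across genes. Under RP105 the libraries labelled WT held 2, 5 and 2 Sg3 junctions, of 1624, 956 and 2496 outside chromosome 15. Those labelled ATM-deficient held 1, 0 and 0, of 586, 744 and 1156. Under anti-CD40/IL4 the 4 WT libraries held 0 in 4457 junctions, which allows up to 0.673 per 1000, and the ATM-deficient libraries held 0, 1 and 1 in 6818.

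By observed share, all 3 libraries labelled WT under RP105 thus exceeded every WT library under anti-CD40/IL4 in Sg3, and 5 of the 9 junctions came from 1 library. In single WT libraries under anti-CD40/IL4, an observed 0 allows up to 0.199% to 0.410%. The shares of 0.123% and 0.0801% in replicates 1 and 3 labelled WT under RP105 lie below that range. Set against the 3 counts that an observed 0 allows over the group, the pooled level under RP105 in WT was 2.63 times that ceiling. This value takes the 9 junctions as exact. Their level had an exact 95% interval of 0.811 to 3.36 per 1000, against a ceiling of 3 counts at 0.673 per 1000. The exact 95% interval of the level in WT under anti-CD40/IL4 reached 0.827 per 1000, so the 2 exact intervals overlap. The ratio to the ceiling was 1.44 without replicate 2 labelled WT under RP105, where it rests on 4 junctions. It was 4.03 without replicate 3 of that group and 1.74 without WT replicate 3 under anti-CD40/IL4. The edgeR quasi-likelihood test gave Sg3 an adjusted p = 0.0807 in this comparison, above the threshold of 0.05, which 1.85% of the 162 genes tested passed and 0 of the members did. Over 8 comparisons and the 3 members with at least 10 junctions, 0 of 24 edgeR tests passed. An unadjusted p under 0.05 was found in 2 (this one, and Sa for ATM-deficient against KU55933), and DESeq2 had 0 of either kind. The edgeR adjusted p of Sg3 in this comparison ran from 0.0430 to 0.211 when single libraries were left out. It passed without replicate 1 of KU55933 (0.0430) and without replicate 3 labelled WT under RP105 (0.0469). Sg3 met the minimum of 10 junctions only through its 10 under RP105, as the anti-CD40/IL4 libraries held 4. Sa met it only through the 9 of the KU55933 libraries, of 11 in all, and 7 of those 9 share words with Smu. The minimum thus favours a difference in these 2 tests, whose p-values are a description. ATM-deficient and KU55933 libraries were also read on different sequencers. Over both labels Sg3 was 7.46-fold higher per junction outside chromosome 15 (exact 95% interval 1.59 to 70.0, 10 of 7562 against 2 of 11275). Without replicate 2 labelled WT under RP105 this ratio was 4.27 (exact 95% interval 0.699 to 44.8), an interval that includes no difference, and without ATM-deficient replicate 2 or 3 under anti-CD40/IL4 it was 11.3 or 12.4. This interval and those below treat junctions as independent and cover counting error only.

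The KU55933 libraries, read on the same sequencer as RP105, held 0, 0 and 2 Sg3 junctions among 3606, 5432 and 5604. Against them, the libraries labelled WT under RP105 were 12.98-fold higher (exact 95% interval 2.69 to 123). This ratio was 7.11 (exact 95% interval 1.02 to 78.6) without replicate 2 labelled WT under RP105, 19.9 without replicate 3 of that group and 8.16 without KU55933 replicate 2. Without KU55933 replicate 3, which holds both Sg3 junctions of that group, it has no finite value.

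**Figure D1:**
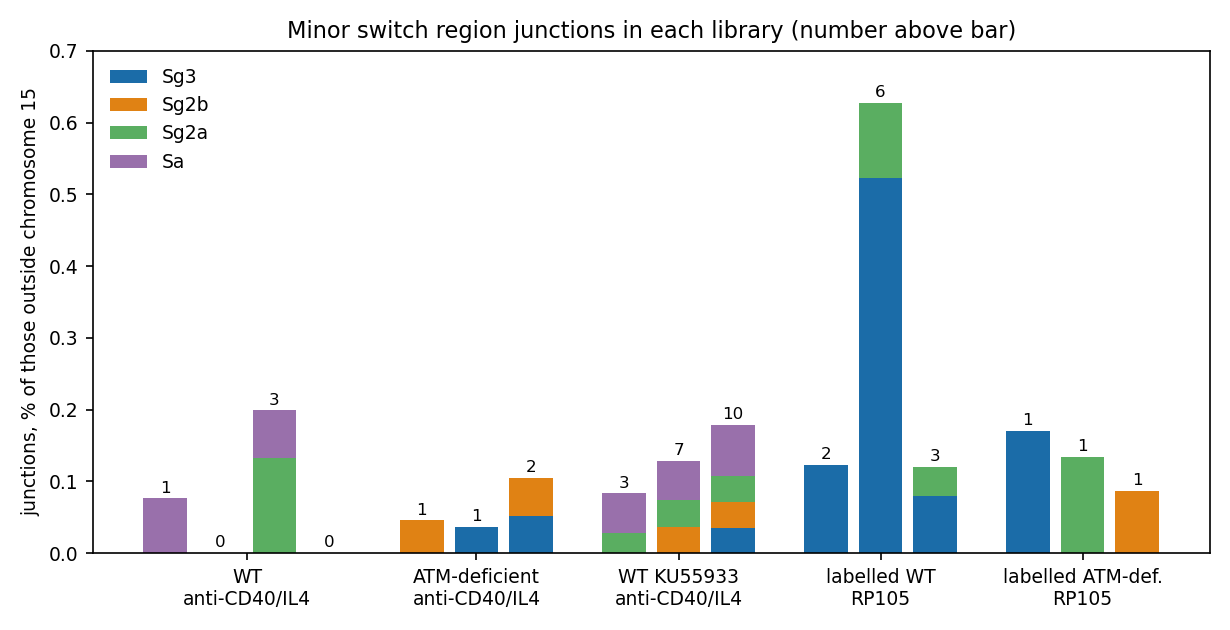
Bars give Sg3, Sg2b, Sg2a and Sa junctions as a percentage of the junctions outside chromosome 15 in each of the 16 libraries, stacked by region, with the number of junctions above each bar. Sg3 fills most of the bars of the libraries labelled WT under RP105, where replicate 2 reaches 0.628%, and Sa is present only in WT and KU55933 libraries under anti-CD40/IL4.

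Sa, the acceptor for IgA, was found under anti-CD40/IL4 alone. WT libraries held 1, 0, 1 and 0 Sa junctions, and the KU55933 libraries held 2, 3 and 4. The ATM-deficient libraries held 0 of 6818, which allows up to 0.440 per 1000, and the RP105 libraries 0 of 7562, which allows up to 0.397.

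Per junction outside chromosome 15, the KU55933 libraries held Sa 1.37-fold as often as WT without inhibitor (exact 95% interval 0.284 to 13.0), an interval that includes no difference. The fitted log2 difference was 0.42 ± 1.03 (SE), with an edgeR adjusted p = 0.869, in a comparison that called 0.617% of genes. Leaving out the junctions with a word shared with Smu removes 7 of the 9 Sa junctions of the KU55933 libraries, and the 2 of WT remain. At these depths little can be said of Sa under RP105.

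Sg2a and Sg2b, the acceptors for IgG2a and IgG2b, were thinly spread over conditions. Sg2a was found in 7 libraries: 2 junctions in WT replicate 3 under anti-CD40/IL4, 1, 2 and 2 in the KU55933 libraries, and 1 each in replicates 2 and 3 labelled WT and in replicate 2 labelled ATM-deficient under RP105. Sg2b was found in 5 libraries: 1 each in ATM-deficient replicates 1 and 3, 2 each in KU55933 replicates 2 and 3, and 1 in replicate 3 labelled ATM-deficient under RP105.

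Neither region separated the groups. Sg2a stood at 0.76 times its WT level with KU55933 (exact 95% interval 0.125 to 7.99), with a log2 difference of -0.32 ± 1.11 (SE) and an edgeR adjusted p = 0.879. Sg2b had under 10 junctions, the minimum for the fit, and has counts only. The direction of the Sg2a value turned under TMM factors and under DESeq2.

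One Sg2a junction, at 114528574, occurred in KU55933 replicates 1 and 2, which share a sequencing run. Both reads had the same 45 unaligned bases between bait and prey and were identical in 234 of 235 bases. Across the series, 135 positions were shared within a run with the same bait end and gap, against 9 between runs, among 32430 distinct positions. Counting this junction once took Sg2a below the minimum of 10 junctions, so Sg2a was not tested in that setting. No call of Sg3, Sa or the summed regions changed.

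Position within the locus puts these low counts in context. Under RP105, both labels together, Sg3 held 0.372 junctions per kb per 1000 junctions outside chromosome 15. The intervals on either side held 0.0348 between Sg1 and Sg3 and 0.0505 between Sg3 and Smu. Under anti-CD40/IL4 without inhibitor Sg3 held 0.0499, against 0.144 and 0.0616 in those intervals, so Sg3 was not denser than its surroundings there.

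With KU55933, Sg3 held 0.0384, also below its 2 neighbouring intervals at 0.0659 and 0.0735. Sa held 0.292 with KU55933 and 0.0842 without inhibitor, against 0.0736 and 0.0558 between Sa and Se. Without the 7 junctions that share words with Smu, Sa held 0.0648 over the same span with KU55933, below that neighbouring interval. Sg2a held 0.0338, 0.0651 and 0.0756 junctions per kb per 1000 without inhibitor, with KU55933 and under RP105.

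Sg2b held 0.0295, 0.0455 and 0.0220 in the same order. The intervals beside Sg2a and Sg2b ranged from 0.00786 to 0.179 over the 3 conditions. Each span was drawn from the region's own first and last junction, which raises its density relative to an interval between regions, so these values are a description. For scale, Smu held 7.50 under anti-CD40/IL4 without inhibitor.

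**Figure D2:**
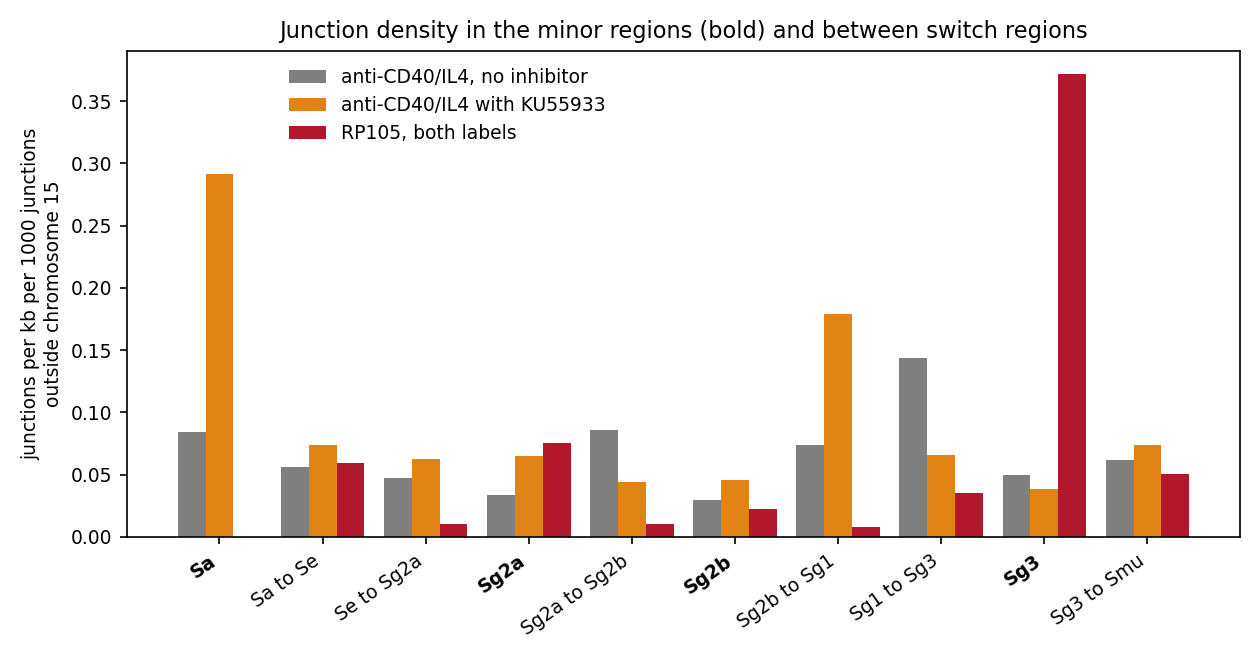
Bars give junctions per kb per 1000 junctions outside chromosome 15 in the 4 minor regions (bold names) and in the intervals between neighbouring switch regions, ordered from the centromere, for anti-CD40/IL4 without inhibitor, with KU55933 and for RP105. The tallest bars are Sg3 under RP105 at 0.372 and Sa with KU55933 at 0.292 (0.0648 without the junctions that share words with Smu), and the other bars of the minor regions lie at or below 0.0842.

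The stimuli differed in how the switch junctions were divided between minor and major regions. The 4 minor regions together made up 22.2%, 60.0% and 15.8% of switch junctions in the libraries labelled WT under RP105, and 7.69%, 100% and 14.3% in those labelled ATM-deficient. Under anti-CD40/IL4 they made up 0.613%, 0%, 1.74% and 0% in WT, 1.12%, 0.704% and 2.78% in ATM-deficient and 1.11%, 1.48% and 2.61% in KU55933 libraries.

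All 6 RP105 libraries lay above all 10 libraries under anti-CD40/IL4. The RP105 libraries had few switch junctions, with 9, 10, 19, 13, 1 and 7 in the same order, and the value of 100% rests on 1 junction. The mean was 36.7% over the 6 RP105 libraries and 0.995% over the 7 anti-CD40/IL4 libraries without inhibitor, a difference that had an exact permutation p = 0.00117 (two-sided), the smallest this test can give, and 0.00932 after Benjamini-Hochberg adjustment over 8 comparisons. It was 23.0 to 41.5 percentage points when single libraries were left out, with adjusted p from 0.00932 to 0.0202. Without the 12 junctions that share words with another switch region it was 32.8 points with an adjusted p = 0.0746, so the call did not hold there.

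Within 1 genotype label the groups did not overlap either, but 3 or 4 libraries a group cannot reach 0.05. WT under RP105 averaged 32.7% ± 23.9 (SD, n = 3) against 0.589% ± 0.822 (SD, n = 4), with an exact permutation p = 0.0571, the smallest possible. The libraries labelled ATM-deficient averaged 40.7% ± 51.5 (SD, n = 3) against 1.54% ± 1.10 (SD, n = 3), with an exact permutation p = 0.1, the smallest possible. Against the KU55933 libraries on the same sequencer, at 1.73% ± 0.783 (SD, n = 3), the libraries labelled WT under RP105 were 30.9 points higher, also at the smallest exact permutation p, 0.1. Pooled counts were 11 of 38 switch junctions under RP105 in WT and 20 of 1127 with KU55933, a ratio of 16.3 (exact 95% interval 7.06 to 35.7), or 10.1 (2.95 to 27.6) without replicate 2 labelled WT under RP105.

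**Figure D3:**
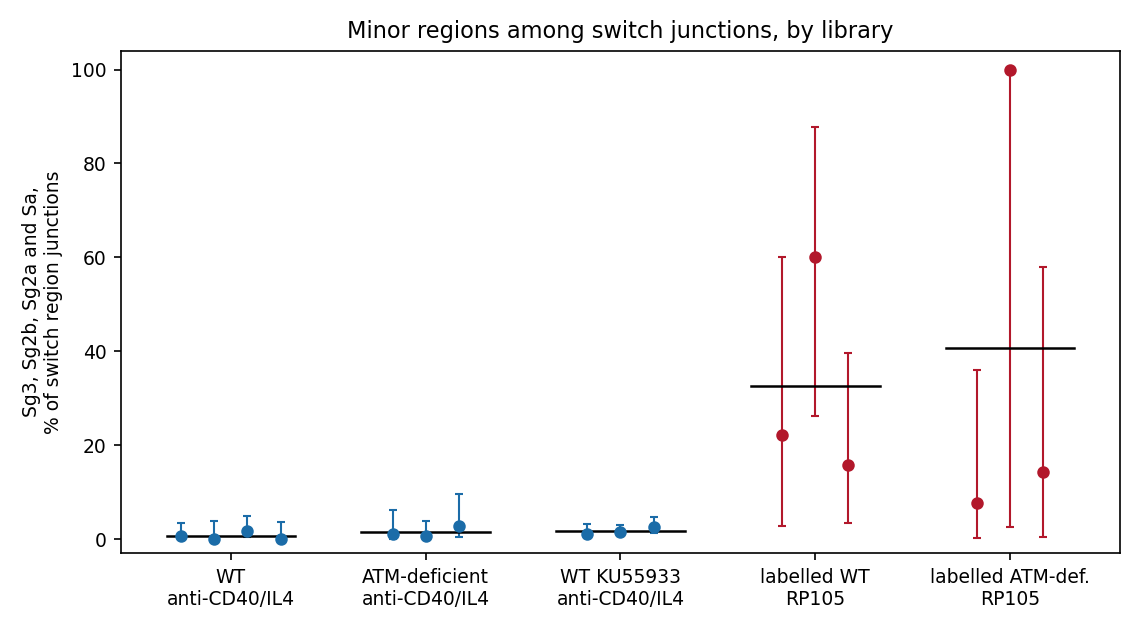
Points give the share of Sg3, Sg2b, Sg2a and Sa among all switch region junctions of a library, in percent, with exact 95% binomial intervals, and black lines give group means. The 6 RP105 libraries (red) run from 7.69% to 100% and the 10 anti-CD40/IL4 libraries (blue) from 0% to 2.78%.

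That division came with a fall of the major regions, while no rise of the minor regions as a group passed the test. The minor regions together held 0.123%, 0.628% and 0.120% of junctions outside chromosome 15 in the libraries labelled WT under RP105, and 0.0765%, 0%, 0.199% and 0% in WT under anti-CD40/IL4. The libraries labelled ATM-deficient held 0.171%, 0.134% and 0.0865%, against 0.0456%, 0.0368% and 0.105%. The groups overlapped in both genotypes.

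The edgeR log2 difference of the minor regions, RP105 over anti-CD40/IL4 as a mean of both genotypes, was 1.17 ± 0.75 (SE) with an adjusted p = 0.472, in a comparison that called 6.88% of 160 genes. In WT it was 1.37 ± 0.89 with an adjusted p = 0.451, and in ATM-deficient cells 0.97 ± 1.16 with an adjusted p = 0.673, each in comparisons that called 1.88%. In the same comparison of both genotypes Se fell by 6.60 ± 0.81 (edgeR adjusted p = 1.26e-13), Sg1 fell by 3.80 ± 0.57 (3.90e-09) and Smu fell by 2.65 ± 0.51 (9.97e-06). The median over all genes tested was -0.42, and -0.63 under TMM factors.

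The direction of the minor regions rests on few junctions. Without replicate 2 labelled WT under RP105 the log2 difference was 0.71 over both genotypes and 0.45 in WT, and without WT replicate 3 under anti-CD40/IL4 it was 1.80 and 2.62. Both were the extremes over single libraries left out, and neither passed the edgeR threshold. DESeq2, whose size factors here rest on 1 gene, gave -0.78 and -0.30. A permutation test of the share of junctions outside chromosome 15, 0.210% against 0.0661%, gave an exact p = 0.0455, and 0.364 after adjustment over 8 comparisons. Without WT replicate 3 under anti-CD40/IL4 the adjusted value was 0.0346.

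AID also attacks some genes outside Igh. Of 16 such off-target genes on a list chosen with earlier results of these data known, 10 had enough junctions to test. The minimum of 10 junctions counts all libraries, and anti-CD40/IL4 libraries hold 25917 of the 33479 junctions outside chromosome 15. Genes high under anti-CD40/IL4 thus enter more easily, which favours a fall under RP105, so the following counts are a description. Under RP105 against anti-CD40/IL4, over both genotypes, 4 of the 10 fell (Bcl2l1, Il21r, Il4ra and Pim1) and 0 rose by edgeR, with 5 below and 0 above at an unadjusted p under 0.05, and the median log2 difference was -2.02. The median of all genes in the fit with members separate was -0.42, and 6.79% of 162 genes were called.

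Loss or inhibition of ATM was not followed by a detectable change of the minor regions. Under anti-CD40/IL4 the ATM-deficient libraries held 4 junctions of the 4 regions in 6818, against 4 in 4457 in WT, a ratio of 0.654 (exact 95% interval 0.122 to 3.51). The 4 were 2 in Sg3 and 2 in Sg2b in ATM-deficient libraries, and 2 in Sg2a and 2 in Sa in WT. With KU55933 there were 20 in 14642, a ratio to WT of 1.52 (exact 95% interval 0.510 to 6.12). WT replicate 3 holds 3 of the 4 WT junctions, and without it the 2 ratios were 1.73 (exact 95% interval 0.171 to 85.2) for ATM-deficient and 4.03 (exact 95% interval 0.644 to 167) for KU55933.

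The edgeR log2 differences were -0.52 ± 1.04 (SE) for ATM-deficient against WT (adjusted p = 0.979), 0.58 ± 0.84 for KU55933 against none (0.786) and -1.10 ± 0.82 for ATM-deficient against KU55933 (0.487). These comparisons called 0%, 0.625% and 0% of 160 genes with edgeR, 0% each with DESeq2, and 8, 24 and 16 genes had an unadjusted edgeR p under 0.05. With TMM factors the comparison of KU55933 with none called 21 of the 160 genes (13.1%), all higher, in place of 1 lower, and the minor regions stood at 1.69 with an edgeR adjusted p = 0.158. Without WT replicate 3 the first value turned to 0.73 and the second was 1.83 (edgeR adjusted p = 0.512).

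Under RP105 the libraries labelled ATM-deficient held 3 junctions of the 4 regions in 2486 and those labelled WT 11 in 5076, a ratio of 0.557 (exact 95% interval 0.0998 to 2.11). For Sg3 alone this was 1 against 9, with a log2 difference of -2.09 ± 1.41 (edgeR adjusted p = 0.634). For the 4 regions the edgeR log2 difference was -0.92 ± 1.00 with an adjusted p = 0.752, and it was 0.0051 without replicate 2 labelled WT. The interaction, in which the genotype difference under anti-CD40/IL4 is subtracted from the one under RP105, was -0.40 ± 1.61 with an edgeR adjusted p = 1, and both comparisons called 0% of genes with either tool, with 4 and 12 genes at an unadjusted edgeR p under 0.05.

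Most Sg3 preys had 1 orientation. On the minus strand lay 12 of 14 Sg3 junctions (85.7%, exact 95% interval 57.2% to 98.2%), of which 9 of 10 under RP105 and 3 of 4 under anti-CD40/IL4. The shares were 60.0% in Sg2a (26.2% to 87.8%), 63.6% in Sa (30.8% to 89.1%) and 42.9% in Sg2b (9.90% to 81.6%). These intervals overlap that of Sg3, and no test of the difference was run. Outside the constant part of Igh 50.2% lay on the minus strand, in Smu 47.3%, in Sg1 51.4% and in Se 54.3%.

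Sg2b had 2 clusters, 3 junctions at the centromeric end and 4 at the telomeric end, with 4743 bases between them. The centromeric cluster holds the prey at 114546339 printed in part above, which has 2 AGCT in 157 bases, against 1.78 per 100 bases over all Sg2b preys.

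**Figure D4:**
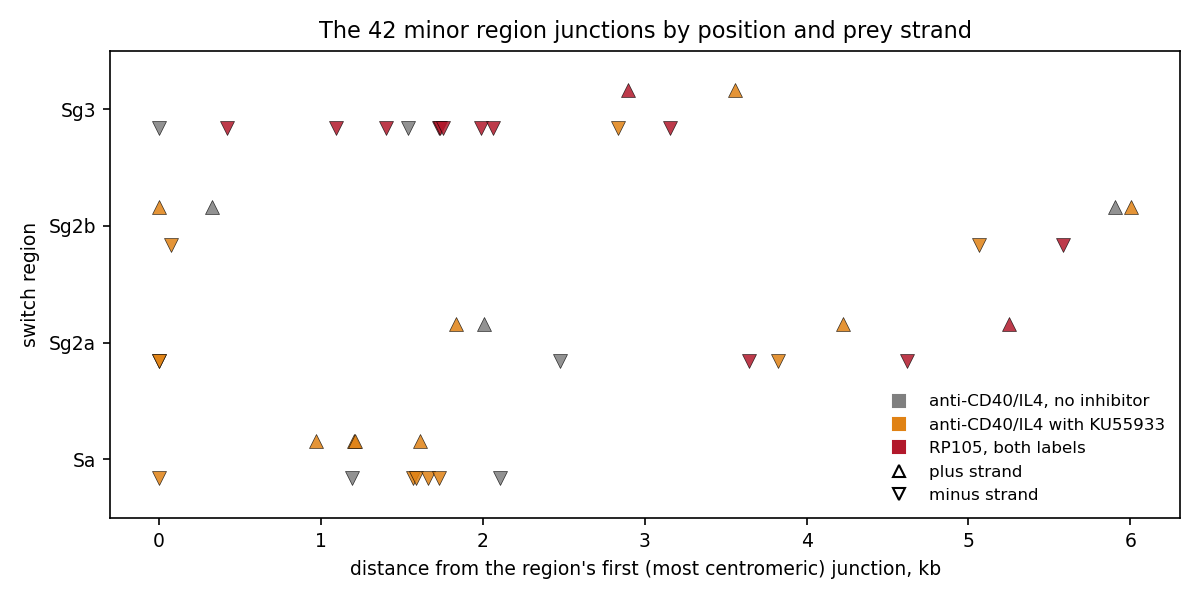
Each triangle is 1 of the 42 junctions, placed by its distance in kb from the region's most centromeric junction, with plus-strand preys pointing up and minus-strand preys pointing down, coloured by condition. Sg3 is made up mostly of minus-strand RP105 junctions, Sa mostly of KU55933 junctions, and Sg2b has an empty middle.

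The commonest join was one in which bait and prey overlap. They shared 1 to 5 bases at 22 of the 42 junctions (52.4%), were joined directly at 5 (11.9%), had 1 to 10 unaligned bases between them at 6 (14.3%) and more than 10 at 9 (21.4%). Outside the constant part of Igh 47.2% shared 1 to 5 bases and another 12.8% shared more than 5, which 0 of the 42 did. There, 18.2% were joined directly, 12.3% had 1 to 10 unaligned bases and 9.48% more. In the major switch regions, 5.41% in Smu, 11.0% in Sg1 and 2.96% in Se shared more than 5 bases. In Sg3 9 of 14 shared bases, and in Sg2a 4 of 10 had more than 10 unaligned bases, of which 2 are the junction found in both KU55933 libraries.

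In Sa, 3 junctions had unaligned stretches of 47 to 80 bases that themselves held 8 to 11 AGCT, and all 3 were among the 7 that share words with Smu. The prey alignment was in more than 1 block at 8 of 11 Sa junctions (72.7%), against 1 of 14 in Sg3, 40.0% in Sg2a, 46.3% in Sg1, 33.5% in Smu and 18.0% outside the constant part of Igh. Among the Sa junctions these were 7 of the 7 that share words with Smu and 1 of the other 4. For the 7 that share words with Smu, the region itself is therefore uncertain, as is the position of the junction within the repeats.

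The genes whose share over the 16 libraries was most like that of the 4 regions were Plcd3, Apbb1 and Fermt2, with Spearman correlations of 0.363, 0.355 and 0.215, the highest among 29 genes with at least 30 junctions. Both shares in a library have the same depth and denominator. Such weak correlations over sparse counts are a description only.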

How the data were processed

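Members and gene lists were chosen with earlier results of these data known. The deposited files list 1 junction per row on mm9 (the build per the submitters' processing notes), with the label, position, read and, per the file headers, an alignment score, which was not used. A count of PCR reads per junction, per the headers of the older deposited files, was not used either. Aligner and filters: not given in the sources used here. Of 141226 rows, 56 repeats and 3 mitochondrial rows were dropped, and 1 broken record was rejoined. In 1 library the read column was offset by 2 bases and was corrected.

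Junction counts per label were fitted with edgeR 4.0.16 (R 4.3.3) over all 16 libraries, with library size set to the junctions off chromosome 15, at least 10 junctions per gene and Benjamini-Hochberg adjustment. The named genes were fixed as the 4 members, Smu, Sg1 and Se, an AID list by count, and the 3 genes most alike. Differences are log2. Shares per library were compared by two-sided exact permutation tests (scipy). The fits and the permutation code were tested on simulated data. Ratios of pooled counts have exact conditional 95% intervals. The overlap or gap at a junction was read from the bait end and the prey start. The comparison of RP105 with KU55933 in WT and the exclusions of shared words and of the repeated junction were chosen after seeing the data, as were the pooled ratios without single libraries.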

Additional observations from a re-analysis of the deposited data

How the results depend on the processing

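No summed value of the 4 regions passed the edgeR threshold in any of 8 comparisons under any setting tried, but several changed direction. TMM factors gave log2 differences of 0.045 between ATM-deficient and WT under anti-CD40/IL4, -0.11 for RP105 against anti-CD40/IL4 in ATM-deficient cells and 0.38 for Sg2a with KU55933, and called 21 of 160 genes for KU55933 against none, where edgeR without them called 1. DESeq2 gave -0.30 in WT, -1.27 in ATM-deficient cells and -0.78 over both for RP105 against anti-CD40/IL4, and 0.10 for Sg2a with KU55933. Its size factors came from the 1 gene with a junction in every library, and for RP105 against anti-CD40/IL4 it called 10, 21 and 31 genes in WT, in ATM-deficient cells and over both, against 3, 3 and 11 with edgeR. With chromosome 15 beyond 1 Mb of the break in the library size, the interaction was 0.16.

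Leaving out single libraries gave -0.996 to 0.73 between ATM-deficient and WT under anti-CD40/IL4, -1.40 to 0.0051 under RP105, and -1.65 to 0.52 for the interaction. Of the single members, 0 to 1 tests passed. The share of minor regions among switch junctions ranged from -0.819 to 0.242 points for ATM-deficient against KU55933 and from -21.7 to 24.5 for ATM-deficient against WT under RP105. The share outside chromosome 15 ranged from -0.0294 to 0.0369 points between ATM-deficient and WT under anti-CD40/IL4, from -0.245 to 0.00885 under RP105, from 0.0609 to 0.169 for RP105 against anti-CD40/IL4 over both genotypes and from -0.00850 to 0.245 for RP105 against KU55933.

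Without junctions that share words with another switch region, the share among switch junctions differed by 0.155 points between ATM-deficient and KU55933 and by 32.8 points (adjusted p = 0.0746) between stimuli. With Smu left out of the denominator the genotype difference under RP105 was -7.22 points, and without the RP105 library that has 1 switch junction it was -21.7. The cause of these changes was not tested.

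Among same-numbered libraries of different groups, 10 of 30 pairs had a correlation over 0.1 between their deviations from the group mean. The values ran from -0.36 to 0.52 over 29 genes. Whether such pairs deviate together more than differently numbered ones was not tested. With the replicate number as a block the summed log2 difference for RP105 against anti-CD40/IL4 was 0.98 (adjusted p = 0.622), and no call of a member changed. A block for the sequencing run could be fitted only for the genotype comparisons and the interaction. With counts of 0 to 10 junctions per library, differences of a few junctions decide directions.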

Other observations

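Outside the 42 junctions, 8 reads carried several switch names at once, 5 labelled Smu, Sg3 and Sg1 and 3 labelled Sg1, Sg2b, Sg2a and Se. All 8 came from anti-CD40/IL4 libraries without inhibitor, 7 from WT and 1 from ATM-deficient cells. Their prey alignments had 2 to 8 blocks over 101 to 359 aligned bases. In the first 5 the blocks lay in Sg1 and Smu, with 1 read holding a further block elsewhere, and in the other 3 in Sg1 and Se. None of the 8 had a block in Sg3, Sg2b, Sg2a or Sa, and the minor regions they name lie between the blocks. These reads therefore add 0 junctions to the minor regions.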
